A study of Homo sapiens with 8 samples.

Results

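The regions described here come from peaks of the polypyrimidine tract binding protein (PTB) called after crosslinking with UVA light. They met no same-strand peak of the other lists of the series. Whether PTB bound at each of them was not tested. They were defined from the deposited peak positions: UVA peaks within 20 nt of each other on 1 strand were merged into sites, and a site was kept when it shared no nucleotide, on its own strand, with a peak of the other 4 lists. Of 70110 merged UVA sites, 50921 (72.6%) met this rule and covered 2111 kb. The other lists hold 80531 merged sites of PTB crosslinked with UVC, 52446 of a published PTB iCLIP study, 2341 of PTB without UV and 1080 of YFP crosslinked with UVC, so that the members make up 50921 of 206508 sites over the 5 lists.

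All samples came from 293T, a human embryonic kidney cell line, grown under puromycin. The PTB groups carried a Halo-PTB transgene and the control group a Halo-YFP transgene. Halo is a protein tag that bonds covalently to beads, and yellow fluorescent protein (YFP) is not an RNA-binding protein. The groups were Halo-PTB with UVA, Halo-PTB with UVC, Halo-PTB without UV and Halo-YFP with UVC, with 2 samples each and 1 peak list per group. No control group had UVA, so background particular to UVA cannot be told apart from PTB binding in the UVA-only sites. The labels do not state the promoter of the transgenes, the number of clones or the cells of the iCLIP study, nor which of the named sequencers read which library, so sequencer and wavelength cannot be told apart. Since replicates are not separated and read numbers are not given, no spread between replicates can be stated, depth is unknown, and no test between conditions was possible. Intervals below are exact (Clopper-Pearson) 95% intervals that cover counting error only and treat sites as independent, which neighbouring sites are not.

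PTB binds stretches of pyrimidines, above all in introns and untranslated regions. It is known for repressing the inclusion of exons and also takes part in 3′ end formation, RNA stability and translation through internal ribosome entry. UVC light joins proteins to unmodified RNA bases, while CLIP protocols with UVA light commonly rely on a photoreactive uridine analogue that the cells have taken up. The labels name no such analogue, so whether one was given is not known here. Positions are in hg19. No genome or gene annotation of that build was used, so sites are named by position and strand, without a gene, exon or UTR and without their sequence.

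The UVA-only sites were weaker and narrower than the UVA sites found again elsewhere. The deposited score belongs to the authors' peak calling, is higher for lower p-values and is limited to 1000. Scores of 0 beside a p-value printed as 0, in 538 of 83725 UVA peaks, were read as this limit. How many of the sites at the limit hold such a peak was not counted. A merged site keeps the highest score of its peaks. UVA-only sites had a median score of 60 (quartiles 26 and 139), against 164 (76 and 345) for the 19189 UVA sites shared with another list. Of the UVA-only sites 17316 scored above 100, which is 34.0% (interval 33.6 to 34.4), against 66.4% of the shared ones (65.7 to 67.1) and 42.9% of all UVA sites. The limit was reached by 352 UVA-only sites (0.691%) and by 1085 shared sites (5.65%). Members were selected by absence from the other lists, and a narrower site has fewer nucleotides to share, so these differences describe the selection and were not tested.

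The shared sites were not alike either, and UVA-only sites lay below each kind. UVA sites that met an iCLIP peak but no UVC or control peak numbered 10167 and had a median score of 147. Those that met a UVC peak alone numbered 5553, with a median score of 144. The 2932 sites found by UVA, UVC and iCLIP, off the controls, had a median score of 304, and the 537 on a control peak a median of 259. Widths followed the same order: the median was 36 nt in UVA-only sites, 52 nt with iCLIP, 52 nt with UVC, 64 nt on a control peak and 88 nt in the sites of all 3 PTB lists. Sites over 100 nt wide made up 4.14% of the UVA-only sites and 43.6% of those found in all 3.

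The UVA-only share was lower at higher scores in each width class, and lower in wider sites at scores above 20. At scores up to 20 it did not follow width, at 95.1%, 93.8%, 92.6%, 95.1% and 91.7% from the narrowest to the widest class. Among UVA sites scoring up to 16, 94.8% were UVA-only. The share was 75.2% above 50 and up to 100, 55.9% above 200 and up to 500, and 24.5% (interval 22.3 to 26.8) at the limit. By width it was 87.4% up to 10 nt, 75.4% above 40 and up to 50 nt and 14.4% above 200 nt. In sites of 1 to 20 nt the share was 95.1% at scores up to 20 and 77.0% (interval 72.2 to 81.4) above 500. In sites over 100 nt the corresponding shares were 91.7% (11 of 12 sites, interval 61.5 to 99.8) and 13.5% (11.9 to 15.2). A narrow site with a high score was therefore still mostly UVA-only, while a wide one seldom was.

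**Figure D1:**
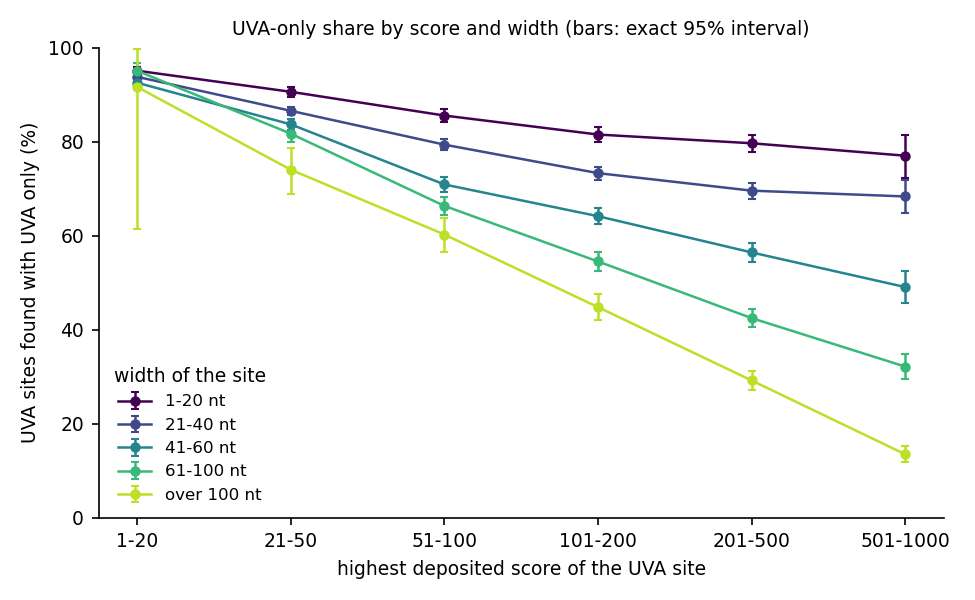
Share of merged UVA sites found with UVA only (vertical axis, percent) in bands of their highest deposited score (horizontal axis), with 1 line per width class and bars for the exact 95% interval. The lines start close together between 91.7% and 95.1% at scores up to 20 and spread to between 13.5% (over 100 nt) and 77.0% (up to 20 nt) above 500.

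At the edge of the rule the values changed little. The 681 UVA-only sites with a gap of 0 to 4 nt to the nearest peak of another list had a median score of 110 and a median width of 35 nt. The 984 shared sites that had only 1 to 5 nt in common with other lists had a median score of 118 and a median width of 33 nt. The 17005 sites sharing more than 10 nt stood higher, at 171 and 59 nt. Members that touched a peak of another list, with no nucleotide in common, numbered 155 (0.304%).

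By their widths UVA-only sites resembled the 37139 iCLIP sites absent from all GoldCLIP lists and differed from the 69028 sites found with UVC only, both sets made by the same rule. The quartiles of width were 23, 36 and 52 nt for UVA-only, 22, 34 and 51 nt for iCLIP-only and 39, 49 and 50 nt for UVC-only sites. The UVC-only widths piled up at 1 value: exactly 50 nt was the width of 1.23% of UVA-only sites, 1.17% of iCLIP-only sites and 30.1% of UVC-only sites. The range from 39 to 50 nt held 17.9%, 17.1% and 68.8% of the 3 sets. Sites of at most 10 nt made up 6.22% of the UVA-only sites, 6.77% of the iCLIP-only sites and 0.606% of the UVC-only sites. Most UVA-only sites consisted of a single deposited peak (91.9%), as did 93.1% of iCLIP-only sites, against 54.4% of UVC-only sites. An interval listed repeatedly counted as several peaks here, and repeats in the iCLIP and UVC lists were not counted.

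**Figure D2:**
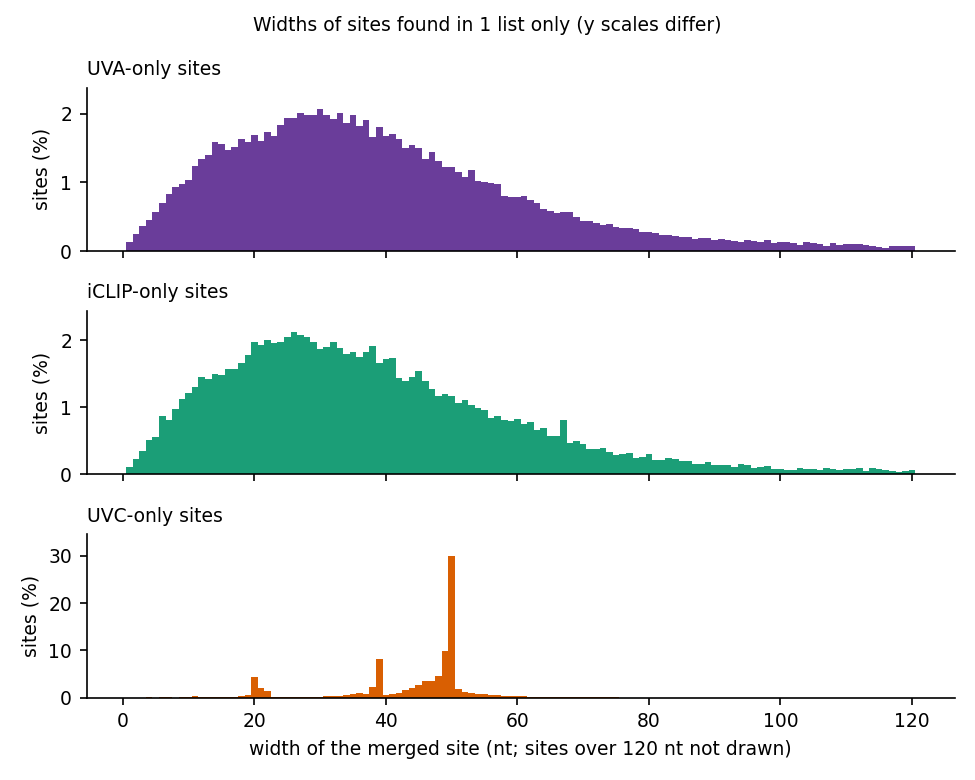
Percent of sites (vertical axes, scales differ) at each width in nt (horizontal axis, sites over 120 nt not drawn) for UVA-only, iCLIP-only and UVC-only sites. UVA-only and iCLIP-only sites form a broad hump with medians of 36 and 34 nt, and 30.1% of UVC-only sites stand in 1 bar at 50 nt.

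The scores of the 3 single-list sets also differed, although a score depends on the depth of its list and does not measure binding between lists. The median was 60 for UVA-only, 39 for iCLIP-only and 19 for UVC-only sites. Scores above 100 were found in 34.0% of UVA-only, 18.1% of iCLIP-only and 0.661% of UVC-only sites, and scores of at most 20 in 17.7%, 24.8% and 51.8%.

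Many UVA-only sites lay close to a peak of another list without meeting it. The gap to the nearest same-strand peak of the other 4 lists had a median of 961 nt (quartiles 172 and 4933 nt). It was at most 20 nt for 5.01% of the sites, at most 100 nt for 18.2% (interval 17.9 to 18.5) and at most 1000 nt for 50.6%. For iCLIP-only sites the median gap was 997 nt and 16.5% lay within 100 nt, and for UVC-only sites the median was 3477 nt and 8.95% lay within 100 nt. A UVC peak was within 100 nt of 5126 UVA-only sites (10.1%) and an iCLIP peak of 4964 (9.75%), and both were that near for 920 (1.81%). A peak of the list without UV was within 100 nt of 143 UVA-only sites (0.281%), and a YFP peak of 71 (0.139%). These shares depend on how many peaks each list holds, and the control lists are short.

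The UVA-only sites far from every other list were the weak ones. Gaps were put in classes that end at 20, 50, 100, 200, 500, 1000, 10000 and 100000 nt, each starting where the one before ends. Scores above 100 were held by 49.9% (interval 48.0 to 51.9) of the 2553 sites with a gap of up to 20 nt, 41.7% in the class up to 200 nt and 34.1% in the class up to 10000 nt. Beyond that the share dropped, to 14.1% (13.3 to 15.0) among 6778 sites in the class up to 100000 nt and 5.81% (4.82 to 6.93) among the 1997 sites farther still. The median score ran from 100 in the nearest class to 20 in the farthest. The median width did not follow: it was 34 nt in the nearest and 41 nt in the farthest class. In iCLIP-only sites the share above 100 stayed between 17.5% and 20.4% up to 10000 nt and was 11.9% and 2.91% in the 2 farther classes. In UVC-only sites no class exceeded 1.67%. Seen by score, 38.9% of UVA-only sites scoring up to 20 lay more than 10000 nt from any other list, against 5.51% of those scoring above 200.

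**Figure D3:**
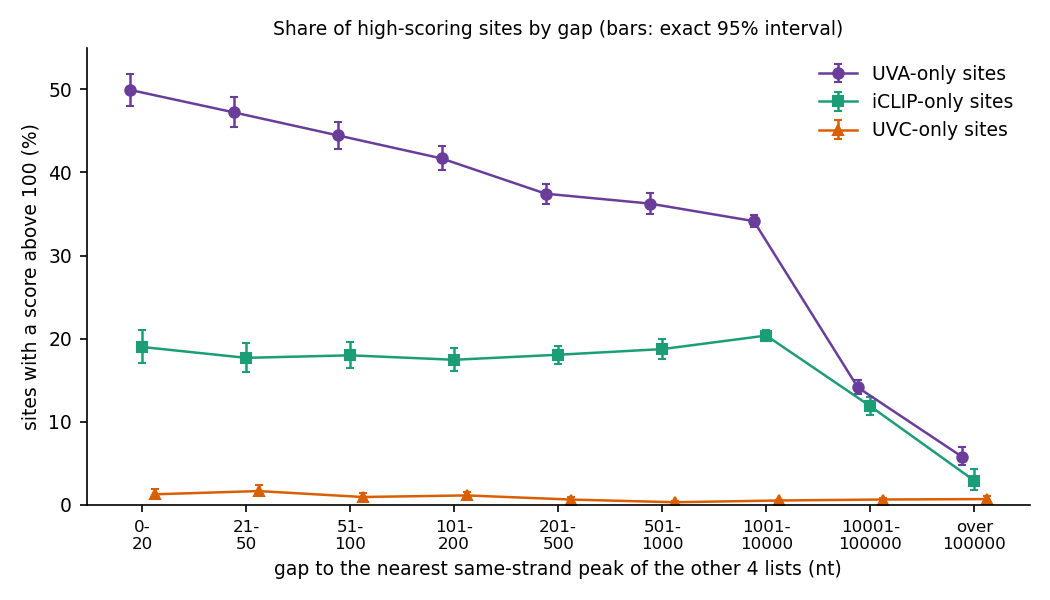
Percent of sites with a deposited score above 100 (vertical axis) by the gap to the nearest same-strand peak of the other lists in nt (horizontal axis, unequal classes), for UVA-only, iCLIP-only and UVC-only sites with exact 95% intervals. The UVA-only line falls from 49.9% in the nearest class to 34.1% in the class up to 10000 nt and 5.81% beyond 100000 nt.

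Near a peak of another list, UVA-only sites lay more often on its 3′ side along the transcribed strand. Sites with equally near peaks on both sides were left out, 10 for UVC and 3 for iCLIP. Of the remaining 5116 UVA-only sites within 100 nt of a UVC peak, 2955 were downstream and 2161 upstream of the nearest one, a downstream share of 57.8% (interval 56.4 to 59.1), where an even division gives 50%. Of the remaining 4961 sites within 100 nt of an iCLIP peak, 3219 were downstream and 1742 upstream, a share of 64.9% (63.5 to 66.2). The rule allows either side equally and did not use it. Both strands showed the same side: 57.8% on the plus and 57.7% on the minus strand relative to UVC, 65.4% and 64.3% relative to iCLIP. The downstream share was above 50% on 22 of 23 chromosomes for UVC (lowest 49.1%) and on 23 of 23 for iCLIP (lowest 58.8%), chromosome Y left out.

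Relative to UVC peaks the preference was short-ranged. It was 65.3% (interval 62.8 to 67.8) at gaps up to 20 nt, 57.6% at 21 to 50 nt, 52.7% at 51 to 100 nt and 50.1% (48.3 to 51.9) in the next class, up to 200 nt. Relative to iCLIP peaks it reached farther: 67.7% up to 20 nt, 64.4% at 51 to 100 nt, 60.8% in the class up to 200 nt and 55.2% (53.6 to 56.7) in the class up to 500 nt. It was 52.8% up to 1000 nt and 55.4% (54.7 to 56.2) up to 10000 nt, where the share relative to UVC was 49.7%. Sites scoring above 100 had the higher shares, 60.4% for UVC and 68.3% for iCLIP. Those scoring up to 20 had 48.7% for UVC, with an interval that held 50% (42.9 to 54.5), and 61.3% for iCLIP.

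The same lean was present in UVA sites that do meet the other lists, so it is not particular to the UVA-only sites. In 7729 pairs of 1 shared UVA site and 1 UVC site off the controls, the midpoint of the UVA site lay downstream in 58.2% of the pairs with unequal midpoints, with a median offset of 5.5 nt. In 11521 pairs with iCLIP the share was 71.3% and the median offset 10.5 nt. From the other side, 34.4% of the iCLIP-only sites near a UVA peak were downstream of it, and 44.8% of the UVC-only sites. UVC-only sites were downstream of iCLIP peaks in 55.6% of cases. Within the UVA list, 60.4% of the UVA-only sites within 100 nt of a shared UVA site were downstream of it. Near the controls the share was 46.9% without UV (143 sites, interval 38.5 to 55.4) and 40.8% for YFP (71 sites, 29.3 to 53.2).

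**Figure D4:**
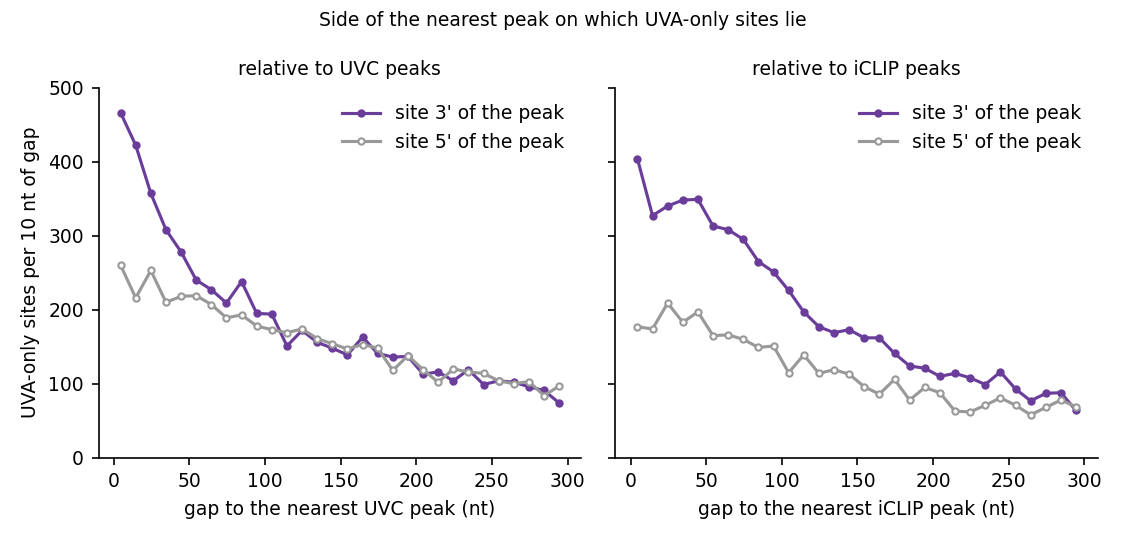
Number of UVA-only sites per 10 nt of gap (vertical axis) against the gap to the nearest UVC peak (left) or iCLIP peak (right) in nt, for sites 3′ of the peak and sites 5′ of it. In the first 10 nt 466 sites lay 3′ and 260 lay 5′ of UVC peaks, and 404 and 177 of iCLIP peaks, and the lines run together beyond about 100 nt for UVC while those for iCLIP are still apart at 200 nt.

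UVA-only sites were found on all chromosomes. Beside the other single-list sets they were more frequent on chromosomes 19, 16, 22 and 17, which are known as gene-rich. They were less frequent on 18 and 13, which are gene-poor, and on others, among them 4, 10 and 6. Chromosome 19 held 8.53% of UVA-only sites (interval 8.29 to 8.77), 5.35% of iCLIP-only sites and 3.57% of UVC-only sites, and 9.16% of the shared UVA sites. The UVA-only share was 2.39 times the UVC-only share and 1.59 times the iCLIP-only share there. Chromosomes 16 (5.37%, 4.07% and 2.76% of UVA-only, iCLIP-only and UVC-only sites), 22 (2.55%, 2.03% and 1.70%) and 17 (7.31%, 5.65% and 4.99%) had the same order. The reverse was widest on chromosome 18, with 1.45% of UVA-only, 2.09% of iCLIP-only and 2.62% of UVC-only sites. Chromosome 13 held 1.32%, 1.83% and 2.30%. In all, the UVA-only share exceeded the UVC-only share on 9 of 23 chromosomes. Chromosome Y held 7 UVA-only sites.

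Among sites scoring up to 20, chromosome 19 held 6.63% (interval 6.13 to 7.17) of UVA-only, 6.65% (6.15 to 7.18) of iCLIP-only and 3.82% (3.62 to 4.02) of UVC-only sites. For scores above 50 and up to 100 it held 9.47% (8.93 to 10.0) of UVA-only, 4.60% (4.16 to 5.06) of iCLIP-only and 4.53% (3.76 to 5.41) of UVC-only sites. Above 200 it held 8.47% (7.88 to 9.09) of UVA-only, 5.15% (4.16 to 6.29) of iCLIP-only and 11.1% (7 of 63 sites, 4.59 to 21.6) of UVC-only sites. In the gap class up to 100000 nt chromosome 19 held 9.15% of UVA-only, 2.89% of iCLIP-only and 1.31% of UVC-only sites. Beyond that gap its shares were small in all 3 sets, at 2.70%, 1.27% and 0.419%. On chromosome 16 the UVA-only share was smaller at high scores, at 3.30% (2.93 to 3.71) above 200, against 6.17% (5.68 to 6.68) up to 20. The iCLIP-only share had the same direction there, at 1.89% above 200 and 5.11% up to 20. Leaving out chromosome Y with its 7 sites, chromosome 16 had the lowest median score of UVA-only sites (48) and chromosome 5 the highest (87), with 25.9% and 44.8% of sites above 100. On chromosomes 1 to 22 and X, the UVA-only share of the UVA sites lay between 69.4% on chromosome 5 and 76.4% on chromosome 2.

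**Figure D5:**
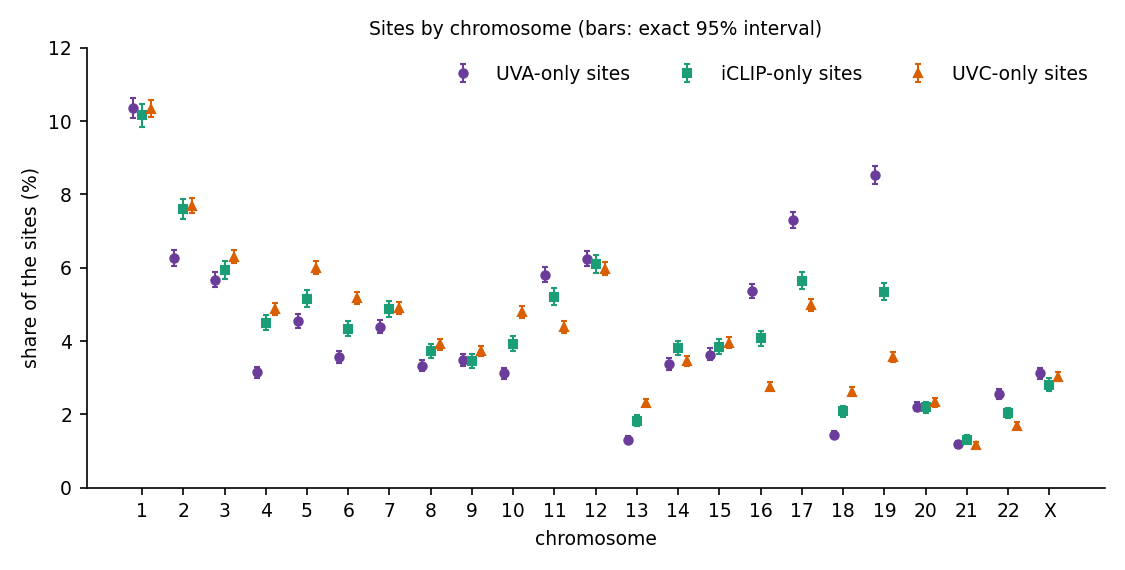
Share of the sites on each chromosome (percent, vertical axis; chromosomes 1 to 22 and X along the horizontal axis) for UVA-only, iCLIP-only and UVC-only sites, with exact 95% intervals. The widest spread is on chromosome 19, at 8.53%, 5.35% and 3.57%.

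UVA-only sites had another member within 200 nt about as often as iCLIP-only sites, and stood less often in chains of 3 or more. The next UVA-only site on the same strand was at a median distance of 867 nt and within 200 nt for 28.2% of the sites (interval 27.8 to 28.6). The values were 966 nt and 29.2% for iCLIP-only sites, and 2424 nt and 9.98% for UVC-only sites. A shared UVA site was within 200 nt of 12.1% of the UVA-only sites. Linking UVA-only sites at most 200 nt apart gave 1338 chains of 3 or more sites, which held 8.76% of the members. For iCLIP-only sites the share in such chains was 11.0%, and for UVC-only sites 1.41%. The longest UVA-only chains held 8 sites. One, chr1:110575197-110576057 on the plus strand, spanned 861 nt, had a median score of 53 and lay 7991 nt from the nearest peak of another list. The other, chr5:60454796-60455960 on the minus strand, spanned 1165 nt with a median score of 73, 915 nt from such a peak.

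On the scale of 100 kb the sites were spread over 12080 strand-specific windows with a median of 3 sites, and the 10 richest windows held 0.731% of them. The 5 richest were mixed windows, which also held sites of other lists. On chromosome 19 the minus-strand window chr19:9000001-9100000 held 48 UVA-only sites among 56 UVA sites, beside 8 UVC and 19 iCLIP sites. The plus-strand window chr17:18000001-18100000 held 40 among 43, beside 6 UVC and 4 iCLIP sites. The plus-strand window chr19:58000001-58100000 held 39 among 44, beside 4 UVC and 11 iCLIP sites. Their median scores were 37.5, 58.5 and 62, against 60 for all UVA-only sites. The plus-strand window chr12:53800001-53900000 held 38 among 58 with a median score of 88, beside 25 UVC, 30 iCLIP, 3 no-UV and 1 YFP sites, and the minus-strand window chr11:62400001-62500000 held 36 among 49 beside 16 UVC and 27 iCLIP sites.

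A smaller group of windows held UVA-only sites and no site of any other list. There were 2045 such windows (16.9%), with 3569 UVA-only sites (7.01%, interval 6.79 to 7.23). For iCLIP-only sites the share in such windows was 3.85%, and for UVC-only sites 11.4%. In 110 of the 2045 windows 5 or more UVA-only sites stood together, 775 sites in all. The counts were 17 of 1029 such windows for iCLIP-only and 511 of 2851 for UVC-only sites, each set judged against its own other lists. The richest of the UVA-only windows was the minus-strand window chr2:152500001-152600000, where 27 sites ran over 82.8 kb. Their median score was 25 and their highest score 94. Next came the plus-strand window chrX:73000001-73100000 with 17 sites and a median score of 24, and the minus-strand window chr14:50400001-50500000 with 15 sites and a median of 28. The 3569 UVA-only sites of such windows were weak as a group: their median score was 21 and 7.09% (interval 6.27 to 7.98) scored above 100, against 34.0% of all UVA-only sites. Their median width was 40 nt, against 36 nt.

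The strongest UVA-only sites lay near a peak of another list more often than UVA-only sites as a whole. The 352 at the score limit had a median width of 53 nt and a median gap of 861 nt to the nearest peak of another list, and 92 of them (26.1%) lay within 100 nt of one, against 18.2% of all UVA-only sites. The 10 named here are the widest of the 352 at the limit. The first, chrX:47442376-47442690 on the plus strand, was 315 nt wide, built of 5 peaks and 151 nt from a UVC peak. The second, chr5:138661494-138661807 on the plus strand, was 314 nt wide and 72 nt from a UVC peak. The third, chr1:207220895-207221187 on the minus strand, was 293 nt wide and 862 nt from a UVC peak, while the nearest iCLIP peak was 1121773 nt away.

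The fourth, chr4:83345380-83345650 on the minus strand, lay 124 nt from a UVC peak and 162 nt from a peak found without UV. It was the only one of the 10 with a control peak within 1000 nt. The fifth, chr22:30715348-30715613 on the minus strand, was 1096 nt from an iCLIP peak. Chromosome 19 held 3 of the 10: chr19:2758883-2759131 (minus strand, 7 peaks, gap 3130 nt), chr19:38883364-38883604 (plus, 7 peaks, 96 nt from an iCLIP peak) and chr19:39389075-39389309 (minus, 220 nt from a UVC and 235 nt from an iCLIP peak). The eighth by width, chrX:47037491-47037729 on the plus strand, lay 1308 nt from an iCLIP and 1375 nt from a UVC peak. The tenth, chr20:34186443-34186664 on the minus strand, was 222 nt wide and 16142 nt from the nearest peak of any other list.

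The widest UVA-only sites were not at the limit. They were chr1:39814722-39815105 (plus strand, 384 nt, score 431), chr11:61518488-61518859 (minus, 372 nt, 614), chr1:46763551-46763918 (minus, 368 nt, 289), chr15:38779168-38779531 (plus, 364 nt, 433) and chr16:88086493-88086847 (plus, 355 nt, 484). Each was assembled from 3 to 7 peaks, and the nearest peak of another list was between 1263 and 5817 nt away. Another UVA-only site lay 21 to 592 nt from each.

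A minority of the strongest sites stood apart from all other lists. Of the 352 at the score limit, 31 lay more than 10000 nt from any peak of the other lists, and 7 more than 100000 nt. Among all 50921 UVA-only sites, 82.8% lay within 10000 nt of such a peak and 96.1% within 100000 nt. Of the 8261 scoring above 200, the limit included, 455 (5.51%) lay beyond 10000 nt. These 31 were on 15 chromosomes, 9 to 222 nt wide with a median of 39 nt, against 56 nt for the 321 nearer ones. Most were also alone in their own list: for 21 of the 31 the next UVA site of any kind was more than 10000 nt away, against 53 of the 321. The farthest was chr1:115270407-115270444 on the plus strand, 38 nt wide, with 179435 nt to the nearest iCLIP peak and 190523 nt to the next UVA site. On the minus strand of chromosome 13, chr13:60583474-60583492 and chr13:60589674-60589712 lay 6181 nt from each other. The nearest peak of another list, from YFP, was 114655 and 108435 nt away, and the nearest UVC peak 4011677 and 4005457 nt. On the plus strand of chromosome 16, chr16:70633299-70633307, chr16:70634103-70634142 and chr16:70634176-70634185 formed a group of 9, 40 and 10 nt at the limit, 22000 to 22877 nt from the nearest iCLIP peak. The sites of this paragraph were chosen after their values were seen.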

How the data were processed

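The data are peak lists of GoldCLIP, a gel-free assay that crosslinks a Halo-tagged protein to its RNA and purifies both, for 8 samples in 4 groups of 2, and a list re-derived by the submitters from published iCLIP samples. The mapping tool was Bowtie 1.1.2, per the submitters' processing notes, which also list the genome builds hg19 and dm3. The part played by dm3, the peak caller, its filters and how replicates were pooled could not be read from labels or headers. Each deposited peak carries a position, a strand, a score and a p-value of at most 0.05. Scores of 0 beside a p-value printed as 0 (538 of 83725 UVA peaks) were read as the score limit of 1000.

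Peaks within 20 nt on a strand were merged, and overlap meant at least 1 nt on that strand. Gaps are nucleotides between interval ends. A side was called downstream along the transcript. Shares carry exact Clopper-Pearson 95% intervals. Positions were written 1-based. Bedtools 2.31.1 gave the same 50921 sites. The overlap code was tested on simulated data, with 5000 of 5000 planted relations recovered. Computation used Python 3.11.15 with scipy 1.17.1, pandas 2.3.3 and numpy 2.4.6, and plots matplotlib 3.10.9.

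The members, bands and comparisons were chosen with earlier results of these data known. Sites named by rule were the 10 with the highest score (ties by width, then position), the 5 widest, the 5 with most peaks and the 5 windows with most members. Further sites and windows are said to be chosen later or were ranked by their count. Pyrimidine content, motifs and gene location were not analysed here, because no genome or annotation of hg19 was used.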

Additional observations from a re-analysis of the deposited data

How the results depend on the processing

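Each share below follows the definition of a UVA-only site, and depth, which is unknown, limits how far absence from a list can be read as absence of binding. No paired analysis was possible because each group is 1 list without replicate columns, and leaving out replicates was likewise not possible. Pyrimidine content and gene location were not run. Of 80 values under alternatives, 44 stayed within the 95% interval of the reported value and 36 moved outside it. Ignoring strand, leaving out chromosome Y or dropping repeated intervals moved none of the 8 results. These alternatives left 50868, 50914 and 50921 of the 50921 members, so they could hardly move a value. Strand was ignored for the overlap only, while gaps, neighbours and sides stayed strand-specific. Their values are among the 44, which therefore says little about robustness. The alternatives of dropped repeats and of sites wider than 20 nt, and all those of the downstream shares, were chosen after seeing the data.

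The UVA-only share of 72.6% became 72.3% with peaks within 50 nt merged, 64.7% when a peak within 50 nt counted as found, 81.6% when 50% of the site had to be covered, 58.8% for peaks at or above the median score, 87.4% against the UVC list alone and 69.6% for sites wider than 20 nt. The cut at the median score, 92, was applied to the UVA peaks alone, and the other lists stayed whole. The share scoring above 100 (34.0%) became 34.7% with only touching peaks merged, 33.4% with merging within 50 nt, 32.2% with the 50 nt margin, 37.8% with 50% coverage, 91.9% at or above the median score, which removes low scores by construction, and 38.97% against UVC alone. The median width of 36 nt became 38 nt with 50% coverage, at or above the median score and against UVC alone, and 42 nt for sites wider than 20 nt. In the next share an overlapping peak counts as near, so its values with 50% coverage and against UVC alone rise by construction. The 50 nt margin leaves only gaps above 50 nt, so its value falls by construction. The share with a UVC or iCLIP peak within 100 nt (18.0%) became 19.1% with touching peaks merged, 15.4% with merging within 50 nt, 8.05% with the 50 nt margin, 27.0% with 50% coverage, 25.1% at or above the median score, 31.7% against UVC alone and 17.7% for sites wider than 20 nt. The share with another UVA-only site within 200 nt (28.2%) became 32.3%, 20.9%, 26.5%, 32.5%, 22.7%, 34.8% and 25.2% under these 7 alternatives. Chromosome 19 held 8.95% at or above the median score and 8.87% of sites wider than 20 nt. The downstream share relative to UVC (57.8%) became 52.95% with the 50 nt margin, which leaves only gaps above 50 nt, 60.3% at or above the median score and 55.4% against UVC alone. Relative to iCLIP (64.9%) it became 68.1% at or above the median score. No alternative brought either downstream share to 50% or below.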

Other observations

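Few UVA-only sites met a peak of another list on the opposite strand. The share over all UVA sites was not computed. Of 50921 UVA-only sites, 53 (0.104%, exact 95% interval 0.0780 to 0.136) overlapped a peak of another list on the opposite strand, 29 of them a UVC peak and 24 an iCLIP peak. A peak of the UVA list itself lay on the opposite strand of 66 UVA-only sites (0.130%).

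The UVA-only sites built from the most deposited peaks were mostly not wide ones. Of the 5 with most peaks, 4 lay on the plus strand of chromosome 5 between positions 140264751 and 140368841. They were chr5:140361290-140361325 and chr5:140368808-140368841 with 12 peaks each, and chr5:140264751-140264789 and chr5:140276728-140276760 with 10 each. They were 33 to 39 nt wide, scored 17 to 30, and their peaks came from only 2 to 4 distinct intervals, listed repeatedly. The other of the 5, chr19:5889930-5890113 on the minus strand, was 184 nt wide, had 10 peaks in 7 distinct intervals and stood at the score limit. Repeated intervals occurred in 293 UVA-only sites (0.575%).

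Among UVA-only sites scoring above 100, the farthest from any other list was chr3:177028146-177028194 on the plus strand, 49 nt wide with a score of 136. The nearest UVC peak was 1842279 nt away and the next UVA site 1841377 nt. The second was chr2:147345244-147345278 on the plus strand, 35 nt wide with a score of 173, 1262483 nt from a UVC peak. These sites were chosen after their values were seen.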
